A study of Homo sapiens with 6 samples.

Results

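The 45 genes described here encode the DNA replication machinery, the enzymes that supply its nucleotides, and the E2F factors and maintenance methylation proteins that accompany S phase. They were chosen by gene symbol from textbook membership and not by a rule on their values, although earlier results of these data were known. They make up 45 of the 29982 symbols in the deposited table. All 45 were among the 13287 symbols with a mean of at least 1 FPKM (a read density, scaled for transcript length and library size) over the libraries. They comprise 17 genes of origin licensing and activation, 20 genes of the polymerases, primase, sliding clamp, clamp loader, single-strand binding and flap processing, 4 genes of nucleotide supply, and 4 genes for E2F factors and maintenance methylation.

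RNA was measured in OVCAR5, an established ovarian cancer cell line, in 6 libraries. Of these, 2 came from cells given the vehicle DMSO, 2 from cells given 10 µM SpiD7 for 2 h, 1 from cells given 10 µM SpiD7 for 6 h and 1 from cells given it for 12 h. SpiD7 is a spirocyclic dimer with reactive groups that bind cysteines, and the study asked whether it activates the unfolded protein response. No duration is given for the vehicle cells, all groups share the same line, and nothing states that replicates came from separate cultures, so that p-values measure only the spread between these libraries, which may be technical. All 7 epithelial markers examined (EPCAM, KRT8, KRT18, KRT19, CDH1, CLDN4 and MUC1) were above 1 FPKM. Their summed level, most of it KRT8 and KRT18, was between 3023 and 4342 FPKM in every library.

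Before S phase, the origin recognition complex, CDC6 and CDT1 load the MCM2 to MCM7 helicase onto DNA, and geminin (GMNN) blocks CDT1 afterwards. CDC45 and the GINS complex then turn the helicase on, and the polymerases, the clamp PCNA and its loader RFC copy the strands. Many of these genes are transcribed at the start of S phase by E2F factors, which RB family proteins hold back in resting cells, and their RNA is commonly highest in cells entering S phase.

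E2F letters were looked for in the promoters because they are the sequence feature that could tie these genes together. Promoters spanning 250 bases before to 50 bases after the start site were taken from RefSeq on GRCh38.p14 for the 39 members with an entry, and the 6 others (MCM4, MCM5, GINS4, POLD3, RPA2 and RPA3) are only named. On either strand, the letters TTTGGCGC or TTTCGCGC stood in 12 of the 39 (30.8%), against 1.16% of all 27305 promoters of the same length. The shorter letters TTCCCGCC stood in 9 of the 39 (23.1%), against 3.14% of all. Any of the 3 motifs was present in 20 of the 39 (51.3%), against 4.24% of all promoters. By role, that was 7 of 14 promoters in licensing, 8 of 17 in the polymerase group and 1 of 4 in nucleotide supply. It was 4 of the 4 promoters of E2F1, E2F2, UHRF1 and DNMT1. The letters CCAAT, also searched, stood in 22 of the 39 (56.4%), against 35.6% of all promoters. A match describes the letters only. The matches below are shown on the strand of the gene, with the searched letters in capitals, for 7 of the members described in the results. The E2F1 match began at position -20 from the start site (chr20:33686386-33686421), that of E2F2 at -42 (chr1:23531252-23531291), that of CDC6 at 7 (chr17:40287875-40287904), that of CDT1 at -24 (chr16:88803749-88803788), that of DNMT1 at -2 (chr19:10194937-10194966), that of GINS1 at 5 (chr20:25407667-25407696) and that of POLA2 at -53 (chr11:65261893-65261932).
E2F1: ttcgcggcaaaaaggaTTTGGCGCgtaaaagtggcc
E2F2: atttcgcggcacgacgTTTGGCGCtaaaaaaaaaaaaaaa
CDC6: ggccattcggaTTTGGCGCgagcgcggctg
CDT1: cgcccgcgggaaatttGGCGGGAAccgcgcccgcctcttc
DNMT1: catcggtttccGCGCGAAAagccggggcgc
GINS1: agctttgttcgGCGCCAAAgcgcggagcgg
POLA2: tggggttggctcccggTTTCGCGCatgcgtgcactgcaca

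The members differed widely between replicates of the same group. Values of the libraries DMSO 2 and 2 h 2 are recovered from columns read as the authors' means of a group, and every statement on these libraries rests on that reading. DMSO 2 was lower than DMSO 1 for 44 of the 45 members, against 54.1% of all genes tested, and RPA3 was the exception. It was more than 2-fold lower for 13 members, against 4.77% of all genes, and more than 2-fold higher for 0, against 8.72%. With upper-quartile scaling, which moved the members' median difference from -0.83 to -0.73, 8 members were more than 2-fold lower. With the columns taken as single libraries, as their names read, 0 were, and the median difference was -0.28 with 44 members still lower. The members' median difference of -0.83 on the log2 (FPKM + 0.1) scale, used for all differences here, stood beside -0.06 over all genes. In the 2 h group, the second library was lower than the first for 45 of 45 members, against 54.6% of all genes, and more than 2-fold lower for 11, against 4.51%, with a median difference of -0.84.

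Other measures moved with DMSO 2 and 2 h 2. The non-coding transcript MIR6723 took 25.0% and 21.8% of their FPKM totals, against 5.04% to 9.19% in the other libraries. The summed level of the 3 endothelial markers was 11.5 and 8.31 FPKM in them and 0.441 to 1.20 in the others, of which PECAM1 alone reached 1 FPKM, while VWF stayed at or near 0. Of the epithelial markers, MUC1 was at 21.9 and 17.7 FPKM in DMSO 2 and 2 h 2, against 3.15 to 11.1 in the others. CDH1 was at 19.2 and 19.3, against 10.4 to 12.8. KRT8, KRT18 and KRT19 were lower in these libraries than in any other, and EPCAM and CLDN4 overlapped. The 5 fibroblast markers summed to 3.25 to 7.12 FPKM and the 5 leukocyte markers to 4.23 to 13.1, with CD3E at 0 in every library. The part of these in the members' levels was not tested. In RNA of whole cultures, fewer cells in S phase and less of each RNA per cell cannot be told apart.

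**Figure D1:**
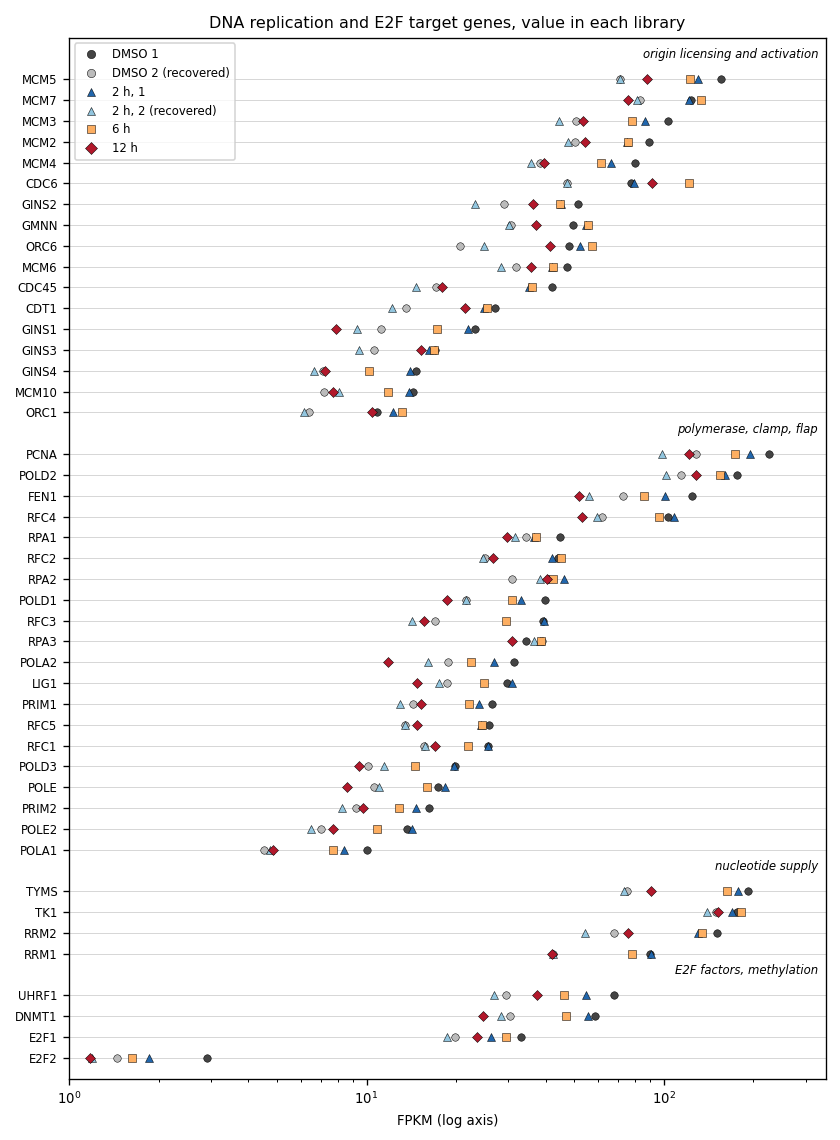
FPKM of the 45 members in each of the 6 libraries on a log axis, grouped by role, with 1 symbol per library. DMSO 1, the first 2 h library and the 6 h library lie to the right for most members, and DMSO 2, the second 2 h library and the 12 h library lie to the left, with CDC6 as an exception at 12 h.

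After 2 h of SpiD7, no member was called as different from the vehicle. The members' median log2 difference from the mean of both DMSO libraries was -0.11, against -0.01 over all genes, and ranged from -0.45 for E2F2 to 0.24 for RPA2. The 2 h level was lower than the DMSO mean for 33 of 45 members, against 51.5% of all genes. With 1 library left out this count followed the replicates: it was 2 without DMSO 1 or without 2 h 2, and 43 without DMSO 2 or without 2 h 1. No member was more than 2-fold lower or higher than that mean, against 0.662% and 2.32% of all genes. The 2 h level was lower within each same-numbered pair for 28 members, against 34.4% of all genes, and higher in each for 3, against 31.5%. For 0 members did both 2 h libraries lie below both DMSO libraries, against 8.1% of all genes, and for 0 did they lie above, against 13.7%. The members' median gaps between replicates, -0.83 in DMSO and -0.84 at 2 h, were larger in size than any 2 h difference here. Most members could therefore hardly meet that rule, and the counts of 0 cannot show whether they responded. By limma with Benjamini-Hochberg adjustment, 0 of 45 members were called at an adjusted p under 0.05 and more than 2-fold, against 0.0226% of all genes, and 0 had an unadjusted p under 0.05, against 2.84%. The lowest unadjusted p in limma was 0.378, for RPA2 (adjusted p = 1), and the standard errors of the members' log2 differences ran from 0.17 to 0.74. This fit had no block, so that the gap between replicates entered these errors. For FEN1 the error was 0.461, and 0.066 with the replicate number as a block. With that block, FEN1, CDC45 and RRM2 had an unadjusted p under 0.05 in limma, as had 1874 of 13287 genes. The members' lowest adjusted p in that limma fit was 0.333.

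At 6 h most members lay between the vehicle libraries. The single 6 h library was lower than DMSO 1 for 36 of 45 members, against 53.1% of all genes, and lower than DMSO 2 for only 1, RPA3, against 44.1%. The members' median difference was -0.24 from DMSO 1 and 0.62 from DMSO 2. The 6 h library was above both for 8 members, against 31.6% of all genes, and below both for 0, against 29.2%. The 8 were CDC6, ORC6, ORC1, GMNN and MCM7 of licensing, RFC2 and RPA2 of the polymerase group, and TK1. More than 2-fold above DMSO 2 were 5 members (CDC6, ORC1, ORC6, CDC45 and TYMS), against 7.76% of all genes, and against DMSO 1 there were 0, against 6.28%. With the columns as named, 0 members were more than 2-fold above the DMSO 2 column at 6 h, 16 were lower than it, and the median difference was 0.03.

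At 12 h the answer turned on which vehicle library was used. The single 12 h library was lower than DMSO 1 for 44 of 45 members, against 54.8% of all genes, with CDC6 as the exception, and more than 2-fold lower for 16, against 4.03%. That count was 10 with a pseudocount of 1 and 7 with upper-quartile scaling. Against DMSO 2, it was lower for 16 members, against 50.2% of all genes, and more than 2-fold lower for 0, against 7.56%. With the columns as named, the direction against DMSO 2 turned, with 39 members lower, 2 of them more than 2-fold, and a median of -0.50. The members' median difference was -0.82 from DMSO 1 and 0.09 from DMSO 2, and over all genes -0.06 and -0.00. The 12 h library lay below both vehicle libraries for 16 members, a share no larger than the 35.6% of all genes that did so, and above both for 1, against 30.1%. No member was more than 2-fold lower than each DMSO library, against 0.993% of all genes.

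**Figure D2:**
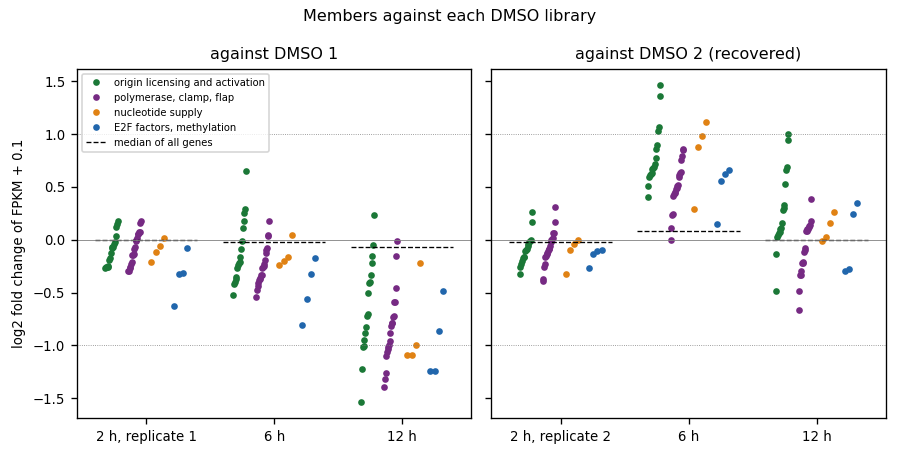
Log2 difference in FPKM + 0.1 of each of the 45 members (points, coloured by role) from DMSO 1 in the left panel and from DMSO 2 in the right panel, for the 2 h library of the same number, the 6 h library and the 12 h library, with the median of all genes as a dashed line. At 12 h the members' median is -0.82 in the left panel and 0.09 in the right.

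The 6 h and 12 h libraries, both scaled through DMSO 1, differed from each other without use of the recovered libraries. The 12 h library was lower for 45 of 45 members, against 56.7% of all genes, or for 44 of 45 with median-ratio or upper-quartile scaling. The median step was -0.53, against -0.06 over all genes, and GINS1 alone exceeded 2-fold, against 2.04% of all genes. The median step was -0.48 in licensing, -0.64 in the polymerase group, -0.84 in nucleotide supply and -0.37 in the E2F and methylation group. These are 1 library each, with no replicate check. The members' median difference between the vehicle libraries, which does use the recovered DMSO 2, was larger in size at -0.83, against -0.06 over all genes. With the columns as named that difference was -0.28, smaller in size than the step.

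**Figure D3:**
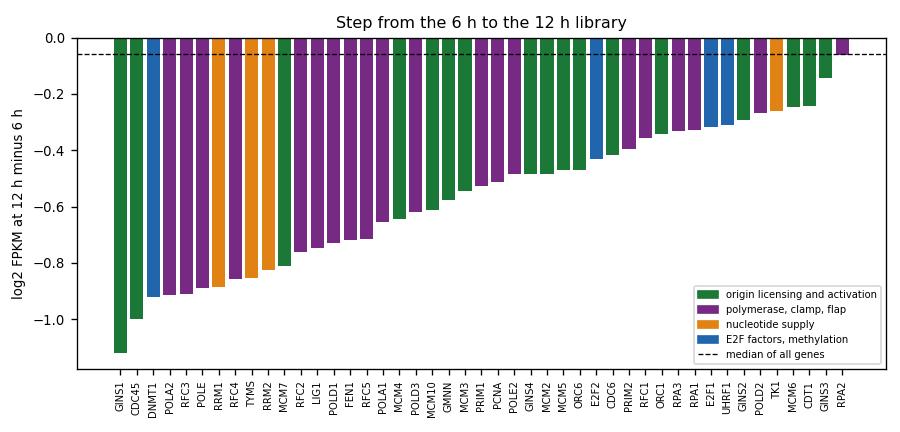
Log2 FPKM of the 12 h library minus the 6 h library for each member, ordered by size and coloured by role, with the median of all genes as a dashed line. Every bar points down, from -1.12 for GINS1 to -0.06 for RPA2.

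Among the licensing genes, the summed MCM helicase lay between the vehicle libraries at 6 h and 12 h, and CDC6 lay above both. At 6 h MCM7, ORC6, ORC1 and GMNN were also above both, and MCM7 was below both at 12 h. The summed FPKM of MCM2 to MCM7 was 599 in DMSO 1, 326 in DMSO 2, 522 and 308 at 2 h, then 513 at 6 h and 347 at 12 h. MCM2 (chr3:127598356-127622436, coordinates as deposited, human hg38), a helicase subunit, was at 89.4 FPKM in DMSO 1, 50.3 in DMSO 2, 75.3 and 47.5 at 2 h, with 75.9 at 6 h and 54.3 at 12 h. Its 6 h and 12 h levels lay between the vehicle libraries, at 0.59 and 0.11 above DMSO 2 and -0.24 and -0.72 from DMSO 1 (log2 differences). An antisense RNA shares 30.7% of the exon bases of MCM2, and without strand their reads cannot be told apart. The deposited intervals given here and below are not gene boundaries. For RRM1, TK1 and PCNA, for example, the start site of the promoter entry lies well inside the interval.

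CDC6 (chr17:40287893-40303161), the factor that helps load the helicase, was the only member above both vehicle libraries at both later times. Of all genes, 31.6% were above both at 6 h and 30.1% at 12 h, and the share at both times was not counted. The level of CDC6 was 77.4 FPKM in DMSO 1, 47.3 in DMSO 2, 79.6 and 47.3 in the 2 h pair, 122 at 6 h and 91.0 at 12 h. The 2 h libraries sat beside their same-numbered vehicle libraries, and the 6 h library was the highest of all. The log2 difference at 6 h was 1.01 from the DMSO mean, 0.65 from DMSO 1 and 1.36 from DMSO 2, and at 12 h it was 0.59, 0.23 and 0.94. It was the 1 member more than 2-fold above the DMSO mean at 6 h, against 5.66% of all genes, and that count was 0 with median-ratio or upper-quartile scaling, where its difference was 0.95 and 0.96. Relative to MCM2, CDC6 stood at 0.866 and 0.940 in the vehicle libraries, 1.06 and 0.996 at 2 h, then 1.60 at 6 h and 1.68 at 12 h. This ratio of FPKM values within each library does not depend on the scaling of the library. The 0.940 and 0.996 do depend on the way DMSO 2 and 2 h 2 were recovered.

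CDT1 (chr16:88803777-88809258), which acts with CDC6, was at 27.1 FPKM in DMSO 1, 13.6 in DMSO 2, 24.9 and 12.1 at 2 h, with 25.4 at 6 h and 21.5 at 12 h, so that both later levels lay between the vehicle libraries. ORC6 (chr16:46689645-46698394), a subunit of the origin recognition complex, was at 48.0 FPKM in DMSO 1, 20.6 in DMSO 2, 52.2 and 24.7 in the 2 h pair, 57.2 at 6 h and 41.2 at 12 h. It was above both vehicle libraries at 6 h and between them at 12 h. ORC1 and GMNN showed the same order, with ORC1 at 13.2 FPKM and GMNN at 55.7 FPKM at 6 h, against 10.8 and 49.3 in DMSO 1.

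The activators CDC45 and GINS1 lay at the other end of the group. CDC45 (chr22:19479478-19520612) was at 41.9 FPKM in DMSO 1, 17.1 in DMSO 2, 35.1 and 14.6 at 2 h, then 36.0 at 6 h and 17.9 at 12 h, where it met the level of DMSO 2. GINS1 (chr20:25407686-25448555), a subunit of the GINS complex, was at 23.1 FPKM in DMSO 1, 11.1 in DMSO 2, 21.9 and 9.30 at 2 h, with 17.3 at 6 h and 7.91 at 12 h, its lowest level in any library. Its log2 difference at 12 h was -1.54 from DMSO 1 and -0.49 from DMSO 2. GINS3, another subunit, was at 15.3 FPKM at 12 h, between 17.0 in DMSO 1 and 10.6 in DMSO 2, so that subunits of 1 complex did not keep a fixed ratio. Among the 17 licensing genes, only GINS1 and MCM7 were below both vehicle libraries at 12 h, against 35.6% of all genes.

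**Figure D4:**
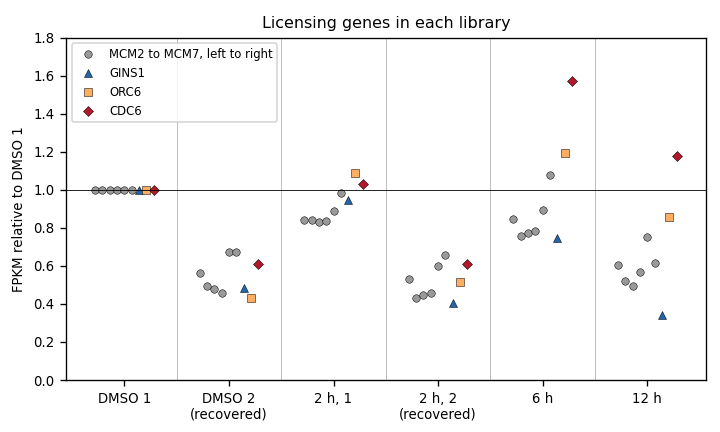
FPKM of MCM2 to MCM7, GINS1, ORC6 and CDC6 in each library relative to DMSO 1, with MCM2 to MCM7 from left to right within each library. CDC6 stands above the line at 1 at both 6 h and 12 h, and GINS1 lies lowest at 12 h.

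The polymerase and clamp group held 11 of the 16 members below both vehicle libraries at 12 h, which was 11 of its 20 genes against 35.6% of all genes, with PCNA, RFC3, RFC4, POLA2, POLD1, POLD3, POLE, FEN1, LIG1, RPA1 and RPA3 among them. Its median log2 difference was -0.85 from DMSO 1 and -0.09 from DMSO 2. PCNA (chr20:5114952-5126622), the sliding clamp, was at 225 FPKM in DMSO 1, 129 in DMSO 2, 195 and 98.4 in the 2 h pair, 174 at 6 h and 122 at 12 h. The second 2 h library, not the 12 h library, was the lowest for PCNA.

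POLA2 (chr11:65261960-65297617), the accessory subunit of the polymerase that starts each strand, lay lowest against the vehicle in this group. It was at 31.3 FPKM in DMSO 1, 18.9 in DMSO 2, 26.7 and 16.1 at 2 h, then 22.4 at 6 h and 11.8 at 12 h. The log2 difference at 12 h was -1.03 from the DMSO mean, -1.39 from DMSO 1 and -0.67 from DMSO 2, and with GINS1 it made up the 2 members more than 2-fold below the DMSO mean, against 3.76% of all genes. That count was 0 with a pseudocount of 1 or upper-quartile scaling, 0 without DMSO 1 and 16 without DMSO 2. Another annotated gene on the same strand shares 53.7% of the exon bases of POLA2, so that the value may hold reads of both. FEN1 (chr11:61792636-61797244), the flap endonuclease that trims Okazaki fragments, was at 124 FPKM in DMSO 1, 72.7 in DMSO 2, 101 and 56.0 at 2 h, with 85.5 at 6 h and 51.9 at 12 h. Its 12 h level was below every other library, with the second 2 h library next.

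POLD2, POLE2 and RPA2 lay between the vehicle libraries at 12 h. POLD2 (chr7:44098427-44123570), an accessory subunit of polymerase delta, was at 176 FPKM in DMSO 1, 114 in DMSO 2, 160.2 and 102 in the 2 h pair, 155 at 6 h and 129 at 12 h, with the second 2 h library the lowest. POLE2 (chr14:49643551-49688380), a subunit of polymerase epsilon, was at 13.6 FPKM in DMSO 1, 7.05 in DMSO 2, 14.2 and 6.53 at 2 h, then 10.8 at 6 h and 7.69 at 12 h. The replication protein A subunits, which coat single-stranded DNA, spanned the narrowest range of the 7 complexes summed, as a ratio of highest to lowest sum. Their sum was 119.9 FPKM in DMSO 1, 104 in DMSO 2, 121 and 106 at 2 h, with 118 at 6 h and 101 at 12 h. RPA2 (chr1:27891523-27914797) was at 40.9 FPKM in DMSO 1, 30.9 in DMSO 2, 46.2 and 38.2 in the 2 h pair, 42.2 at 6 h and 40.5 at 12 h. The clamp loader sum over RFC1 to RFC5 went from 238 FPKM in DMSO 1 to 133 in DMSO 2 and was 217 at 6 h and 127 at 12 h.

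In nucleotide supply, 3 of the 4 genes were more than 2-fold lower in the recovered DMSO 2 than in DMSO 1, against 4.77% of all genes, and 0 were with the columns as named. TYMS (chr18:596997-712662), thymidylate synthase, was at 192 FPKM in DMSO 1, 75.2 in DMSO 2, 177 and 73.3 at 2 h, then 163 at 6 h and 90.2 at 12 h. ENOSF1, on the opposite strand, shares 58.2% of the exon bases of TYMS, and their reads cannot be told apart. RRM1 (chr11:3855702-4138876), the large subunit of ribonucleotide reductase, was at 89.6 FPKM in DMSO 1, 42.3 in DMSO 2, 90.6 and 42.2 at 2 h, with 77.9 at 6 h and 42.1 at 12 h. The 12 h level of RRM1 thus met those of DMSO 2 and the second 2 h library.

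RRM2 (chr2:10122567-10131419), the small subunit of the reductase, was at 151 FPKM in DMSO 1, 67.9 in DMSO 2, 130.0 and 54.1 in the 2 h pair, 134 at 6 h and 75.6 at 12 h. TK1 (chr17:78174078-78207701), the salvage enzyme thymidine kinase, was at 177 FPKM in DMSO 1, 149 in DMSO 2, 169.9 and 139.7 at 2 h, then 182 at 6 h and 152 at 12 h, and varied least of the 4. Another annotated gene on the same strand shares 27.9% of the exon bases of RRM2. At 12 h, the log2 difference from DMSO 1 was -0.99 for RRM2, -1.09 for RRM1 and for TYMS and -0.22 for TK1, and from DMSO 2 it was 0.16, -0.01, 0.26 and 0.03.

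The E2F factors and maintenance methylation genes also divided by vehicle library. E2F1 (chr20:33675485-33686404), an activating E2F, was at 33.0 FPKM in DMSO 1, 19.9 in DMSO 2, 26.3 and 18.6 at 2 h, with 29.4 at 6 h and 23.6 at 12 h, between the vehicle libraries at both later times. E2F2 (chr1:23506427-23531220), a related activator, was at 2.92 FPKM in DMSO 1, 1.45 in DMSO 2, 1.85 and 1.19 in the 2 h pair, 1.62 at 6 h and 1.18 at 12 h. It was the least abundant member in every library. Each 2 h library was lower than the DMSO library of the same number, and the 12 h library was below both DMSO libraries.

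UHRF1 (chr19:4909497-4962154), which brings the maintenance methyltransferase to newly copied DNA, was at 68.1 FPKM in DMSO 1, 29.4 in DMSO 2, 54.7 and 26.8 at 2 h, then 46.3 at 6 h and 37.3 at 12 h. DNMT1 (chr19:10133344-10195079), that methyltransferase, was at 58.6 FPKM in DMSO 1, 30.4 in DMSO 2, 55.7 and 28.3 at 2 h, with 46.9 at 6 h and 24.7 at 12 h. The 12 h level of UHRF1 lay between the vehicle libraries and that of DNMT1 below both, by -0.30 from DMSO 2 on the log2 scale.

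When all 6 libraries were fitted together in limma, so that the lone 6 h and 12 h libraries were taken to vary like the replicated groups, 0 members were called at either time. Of all genes, 0.294% were called at 6 h and 0.339% at 12 h. An unadjusted p under 0.05 was reached by 0 members at either time, against 5.55% of all genes at 6 h and 9.19% at 12 h. The members nearest to a call were CDC6 at 6 h (log2 difference 1.01, standard error 0.51) and POLA2 at 12 h (log2 difference -1.03, standard error 0.51).

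Of 49 other genes of replication and its control, 21 were below both vehicle libraries at 12 h, against 35.6% of all genes, and 5 above both, against 30.1%. The largest positive log2 differences from the DMSO mean at 12 h were those of CCNE1, the cyclin that drives S phase entry (1.35), E2F6, a repressing E2F (1.11), and CDC25A, a phosphatase that activates CDK2 (0.90). The largest negative ones were those of RBL2, an RB family protein (-1.03), E2F8, a repressing E2F (-1.01), and CHTF18, a clamp loader subunit (-0.97). CCNE1 alone of the 49 was more than 2-fold above each DMSO library at 12 h, against 3.88% of all genes.

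Of 20 genes of mitosis, which peak later in the cycle, 18 were below both vehicle libraries at 12 h, against 35.6% of all genes, and 12 were more than 2-fold below the DMSO mean, against 3.76%. Their median log2 difference was -1.63 from DMSO 1 and -0.56 from DMSO 2, against -0.82 and 0.09 for the 45 replication and E2F genes. The mitosis genes also separated the vehicle libraries, with a median of -1.09 for DMSO 2 minus DMSO 1, and the difference between the lists was not tested.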

How the data were processed

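RNA of OVCAR5 cells was sequenced as single reads with a kit that does not mark strand. By the study's methods, the authors used Trim Galore to trim, TopHat 2.0.8 to align and, for FPKM values, Cufflinks and Cuffdiff 2.1.1. Loci in the table are human, although the methods give a mouse build. The deposited table has the FPKM of each side of 4 comparisons, each scaled by Cuffdiff on its own, with fold changes and p-values of their own, which were not used. No column of values was without a sample or group (0 columns). The study's methods give only an approximate number of reads for each sample. Without read counts, neither the exact depth of a library nor its counting error is known.

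The columns named for replicate 2 were read as the authors' means of both libraries of a group, because no row above 0 in the first library was at 0 there and 811 DMSO rows and 964 rows at 2 h lay at 1 fixed lowest share of the first library (0.526 and 0.509). Replicate 2 was what remained after that share of the first library was taken off, divided by the share (set to 0 where under 0.2% of the mean). The 6 h and 12 h comparisons were brought to the first through their shared DMSO 1 library (factors 0.972 and 0.994). Rows of a symbol were summed (33085 rows, 29982 symbols), genes with a mean of at least 1 FPKM were kept (13287), and log2(FPKM + 0.1) was used, which understates differences of low genes. The 2 h libraries were tested against DMSO with limma 3.58.1 in R 4.3.3 without a block. The code was tried on simulated libraries that varied independently, unlike the same-numbered libraries here. That trial does not bear on the choice of no block. At 6 h and 12 h folds were taken against the DMSO mean and each DMSO library with no test, and a limma fit of all 6 libraries with a shared spread was an alternative.

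Exons were compared with other genes of GENCODE; 16 members share exon bases, 6 of them at least 20% with 1 other gene (GINS4, MCM2, POLA2, PRIM1, RRM2 and TYMS). The members and lists were chosen with earlier results of these data known. Values in every library are given for 11 set members, for the 2 highest and 2 lowest at 12 h in each role, and for any more than 2-fold from both DMSO libraries. ORC1, GMNN and GINS3 were named after their values were seen, with summed complexes. Alternatives were pseudocounts, filters, scalings, the columns as named, the highest row of a symbol, a replicate block, an intensity trend, and each replicate left out in turn.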

Additional observations from a re-analysis of the deposited data

Results flagged for a closer look

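MCM7, a subunit of the replicative helicase, lay on opposite sides of the vehicle at the later times. Its level was 124 FPKM in DMSO 1, 83.2 in DMSO 2, 122 and 81.1 in the 2 h pair, 133 at 6 h and 75.8 at 12 h. The log2 difference from the DMSO mean was 0.39 at 6 h and -0.42 at 12 h, with the 6 h library above both DMSO libraries and the 12 h library below both. Each time has 1 library, and the difference between the times was not tested. With both DMSO libraries so far apart, the 6 h library exceeded DMSO 1 by 0.11 and the 12 h library fell short of DMSO 2 by a log2 difference of -0.14.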

How the results depend on the processing

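No member was called by limma at 2 h under any alternative. Over all genes, limma called 3 genes at 2 h, and 6 with a pseudocount of 0.01, 1 with a pseudocount of 1, 0 without the filter, 1 with upper-quartile scaling, 5 with an intensity trend, 110 with the columns taken as named, and 0 to 21 with 1 library left out. With the replicate number as a block, 0 genes were called, at 1874 unadjusted p-values under 0.05 against 378 without it, and 3 members (FEN1, CDC45 and RRM2) had an unadjusted p under 0.05 in limma, with a lowest adjusted p of 0.333. Same-numbered libraries deviated together (r = 0.369 across 13287 genes, which are not independent), but with 2 pairs and no label of a shared batch they share only a number. The 1 member more than 2-fold above the DMSO mean at 6 h, CDC6, was 0 with a pseudocount of 1, median-ratio or upper-quartile scaling or the columns as named, and 0 to 5 with a DMSO library left out (5 without DMSO 1, 0 without DMSO 2). The 2 members more than 2-fold below it at 12 h, GINS1 and POLA2, became 0 with a pseudocount of 1 or upper-quartile scaling, 7 with the columns as named, and 0 to 16 with a DMSO library left out (0 without DMSO 1, 16 without DMSO 2). Of the named members' log2 differences, 65 of 160 changed sign and 12 crossed 2-fold with a library left out, as did 15 and 5 of 60 with the columns as named. Under the other alternatives 5 of 417 changed sign, each within 0.05 of 0, and 7 crossed 2-fold, all of CDC6 at 6 h or of GINS1 and POLA2 at 12 h. The unknown exact depth and counting error limit low members such as E2F2 most.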
